A study of Mus musculus with 82 samples.

Results

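A set of 40 mouse genes encoding chemokines, cytokines, prostaglandin enzymes, NF-kB subunits and the genes by which NF-kB signalling restrains itself was followed in cells treated with activators of AMP-activated protein kinase (AMPK). The genes were chosen by name from what they encode, with earlier results of these data known, so counts of called members are descriptive. A member was measured if at least 1 probe set on the Affymetrix mouse arrays was annotated to its symbol alone. This gave 39 measured members out of 18193 measured genes. Nfkb1 was not analysed here. All cells were of the C57BL/6 strain, and RNA was taken after 4 h of treatment. The knockout cells, called dKO, carry AMPK alpha1-/- alpha2-/- and so lack both catalytic subunits of the kinase, and the WT cells are the controls. Mouse embryonic fibroblasts (MEFs) received 991 at 10 µM, AICAR at 2 mM or the vehicle DMSO, which gave 6 groups, namely dKO with 991 (4 arrays), dKO with AICAR (4), dKO with vehicle (4), WT with 991 (3), WT with AICAR (4) and WT with vehicle (4). Primary hepatocytes, isolated by collagenase perfusion and kept overnight in medium with 100 nM dexamethasone, a synthetic glucocorticoid, received 991 at 3 µM, AICAR at 300 µM or DMSO. They also gave 6 groups, of 10 arrays each except dKO with vehicle, which had 9, and the arrays of each group came from 2 preparations. The fibroblasts were grown in medium with fetal calf serum. Compound 991 binds AMPK directly, and AICAR is taken up and phosphorylated to the AMP analogue ZMP, which activates AMPK and also acts on other AMP-sensitive proteins. The doses differed between the cell types, so changes in fibroblasts and hepatocytes are given side by side and were not compared by a test. The labels name the fibroblast arrays as technical replicates and give no number of lines or embryos, so p-values in fibroblasts measure only technical spread. In hepatocytes the preparation is the replicate (n = 2 per group), and the precision is limited by how few arrays and preparations there are.

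NF-kB is a family of paired transcription factors held in the cytoplasm by IkB proteins. Inflammatory receptors activate the IkB kinase complex, IkB is degraded, and the released dimers switch on chemokine, cytokine and adhesion genes together with their own brakes, among them the inhibitor IkB alpha (Nfkbia) and the ubiquitin-editing enzyme A20 (Tnfaip3). Fibroblasts and hepatocytes both respond in this way, and hepatocytes in addition make acute phase proteins such as lipocalin 2 and serum amyloid A. Glucocorticoids are known to dampen many of these genes.

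Promoter sequences of the members were taken from RefSeq (GRCm38.p6), as windows of 250 bases before to 50 bases after an annotated start. The NF-kB consensus, chosen by its name alone, was GGGRNNYYCC, where R is A or G, Y is C or T and N is any base. Searched on both strands with overlapping matches merged, it was present in 16 of 36 member windows (44.4%). Among all 32851 annotated promoter windows of the same length the share was 8.46%. By gene, 14 of 30 members with a window had a match, or 46.7%, against 9.55% of 27025 genes. A match is a run of letters and not a measured binding site. The members were picked partly as NF-kB feedback genes, so these shares do not test how they are regulated. The windows below belong to genes picked by hand from those the results describe. Except for Ackr3, only windows with a match were printed, so they do not represent the members. The window of Ptgs2, for example, holds no match and is not shown. Merged consensus matches are in capitals and all other bases in lower case, 5′ to 3′ on the strand of the gene.
Cxcl1, chr5:90890995-90891294, plus strand: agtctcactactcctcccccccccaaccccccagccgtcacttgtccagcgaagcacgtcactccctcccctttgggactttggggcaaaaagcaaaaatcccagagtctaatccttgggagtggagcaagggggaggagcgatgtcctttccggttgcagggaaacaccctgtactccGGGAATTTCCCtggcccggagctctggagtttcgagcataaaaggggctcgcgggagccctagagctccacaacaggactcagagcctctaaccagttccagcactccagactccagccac
Cxcl10, chr5:92348840-92349139, minus strand: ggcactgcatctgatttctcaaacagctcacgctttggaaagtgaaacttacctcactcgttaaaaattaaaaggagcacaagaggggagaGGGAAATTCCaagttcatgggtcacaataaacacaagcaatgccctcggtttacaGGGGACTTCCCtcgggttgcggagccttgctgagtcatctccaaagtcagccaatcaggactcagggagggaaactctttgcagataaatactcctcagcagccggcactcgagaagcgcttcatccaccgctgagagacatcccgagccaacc
Ccl20, chr1:83116516-83116815, plus strand: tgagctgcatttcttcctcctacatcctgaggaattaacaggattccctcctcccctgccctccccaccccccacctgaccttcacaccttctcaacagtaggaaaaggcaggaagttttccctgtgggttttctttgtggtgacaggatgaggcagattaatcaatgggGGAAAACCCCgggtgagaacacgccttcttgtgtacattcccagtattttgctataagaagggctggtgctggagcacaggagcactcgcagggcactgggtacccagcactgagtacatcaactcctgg
Nfkbia, chr12:55492598-55492897, minus strand: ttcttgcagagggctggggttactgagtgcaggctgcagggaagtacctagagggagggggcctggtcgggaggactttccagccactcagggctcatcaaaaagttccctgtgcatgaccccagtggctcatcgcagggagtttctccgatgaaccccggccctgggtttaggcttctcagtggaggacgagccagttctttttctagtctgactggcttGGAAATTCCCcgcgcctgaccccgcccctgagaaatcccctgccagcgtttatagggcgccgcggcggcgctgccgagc
Tnfaip3, chr10:19015361-19015660, minus strand: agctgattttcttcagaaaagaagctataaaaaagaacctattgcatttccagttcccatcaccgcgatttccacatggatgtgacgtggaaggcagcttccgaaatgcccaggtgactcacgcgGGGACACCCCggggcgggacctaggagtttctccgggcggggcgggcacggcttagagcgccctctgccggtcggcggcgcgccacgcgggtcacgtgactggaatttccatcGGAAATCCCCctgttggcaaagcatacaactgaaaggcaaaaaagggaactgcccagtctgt
Bcl3, chr7:19822706-19823005, minus strand: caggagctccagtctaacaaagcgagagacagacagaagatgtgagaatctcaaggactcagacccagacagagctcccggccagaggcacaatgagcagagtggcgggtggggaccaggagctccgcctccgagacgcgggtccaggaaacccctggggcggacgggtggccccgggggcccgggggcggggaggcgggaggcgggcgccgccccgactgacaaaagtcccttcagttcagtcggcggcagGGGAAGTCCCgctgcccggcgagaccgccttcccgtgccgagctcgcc
Ackr3, chr1:90203730-90204029, plus strand: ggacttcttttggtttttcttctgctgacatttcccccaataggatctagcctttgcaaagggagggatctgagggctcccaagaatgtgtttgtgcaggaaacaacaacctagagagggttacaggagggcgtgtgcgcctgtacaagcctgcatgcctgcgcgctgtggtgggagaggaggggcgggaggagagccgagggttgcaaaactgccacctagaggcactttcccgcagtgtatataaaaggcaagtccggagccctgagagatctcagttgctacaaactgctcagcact
The match in Cxcl1 begins 71 bases before the start, the match in Ccl20 80 bases before it and that in Nfkbia 29 bases before it. Cxcl10 has matches 159 and 104 bases before its start, and Tnfaip3 125 and 12 bases before the start shown, while the other listed start of Tnfaip3 has none. The match in Bcl3 lies just past the start. The Ackr3 window holds no match, which says only that these letters are not in this window.

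Every value below is a log2 RMA intensity, the log2 of a probe set's normalized brightness, and every change is a difference of such values, given with its standard error (SE) from limma. A gene was called at an adjusted p under 0.05, from limma with the Benjamini-Hochberg adjustment across 18193 genes. The correlation of an array with the mean of the rest of its group was 0.9977 to 0.9993 across genes. Of the 2 deleted subunits, Prkaa2 was lower in dKO than in WT fibroblasts with vehicle (-0.32, adjusted p = 0.00116) and differed by -0.10 (adjusted p = 0.993) in hepatocytes, and Prkaa1 differed by -0.09 (adjusted p = 0.514) in fibroblasts and -1.11 ± 0.09 (adjusted p = 0.194) in hepatocytes. The deleted exons are not named in the labels, so whether these probe sets lie in them was not checked. Hepatocyte arrays held all 10 measured hepatocyte markers and 10 of 12 Kupffer and macrophage markers above the median gene level of the arrays, whereas in fibroblasts 0 of the 12 macrophage markers were above it. In fibroblasts only 4 of 12 fibroblast and stellate markers were above the median, and their array means lay at 6.40 to 6.48 in dKO with vehicle, below the 7.53 to 7.66 of WT with vehicle.

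The cell types differed in which members were bright, a position that reflects probe as well as transcript. In fibroblasts Nfkbia, the IkB alpha gene, had a mean level at percentile 98.4 of all genes, Cxcl12, the ligand of CXCR4 and ACKR3, was at percentile 89.8 and Csf1, the macrophage growth factor, at 87.9. In hepatocytes Lcn2, the siderophore-binding lipocalin 2, was at percentile 99.9, Nfkbia at 96.8, Ccl2, the monocyte-attracting ligand of CCR2, at 95.4, Saa3, a serum amyloid A, at 94.3 and Cxcl1, a neutrophil-attracting chemokine, at 90.5. Other members were dim and any fall in them would be hard to measure. These were Cxcl2 (percentile 4.1), Lcn2 (4.9), Il1a (6.1), Icam1 (12.3) and Il6 (14.9) in fibroblasts, and Cxcl5 (1.3), Il6 (3.6) and Ptgs2 (6.0) in hepatocytes. No gene was filtered out for a low level.

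**Figure D1:**
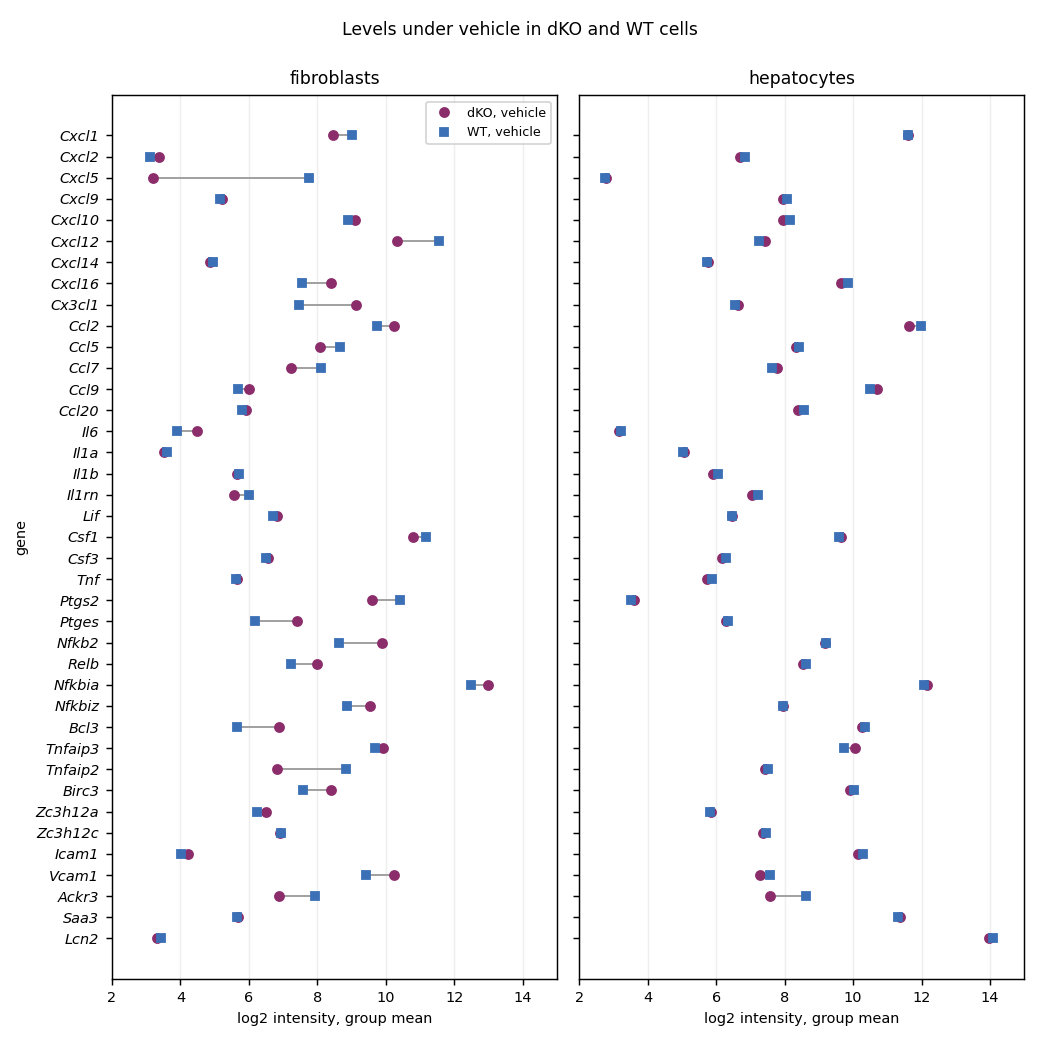
Mean log2 RMA intensity of each of the 39 measured genes in vehicle-treated fibroblasts and hepatocytes, with dKO as circles and WT as squares. Cxcl5 is the widest pair in fibroblasts (3.21 in dKO, 7.75 in WT), while the largest gap in hepatocytes is that of Ackr3 (7.58 in dKO, 8.63 in WT).

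With vehicle alone, dKO and WT fibroblasts differed in most of these genes. Of the 39 members, 17 were higher and 10 lower in dKO, where 28.0% of all genes were higher and 19.2% lower (47.3% called either way), and the members' median difference was 0.11 against -0.0030 over all genes. The NF-kB subunit genes and the feedback genes were mostly higher in dKO (2 of 2 and 6 of 8), and chemokines lay on both sides. The labels name no biological replicates in fibroblasts, so other differences between the dKO and WT cultures and the effect of the deletion cannot be told apart, and 7 of the 12 fibroblast and stellate markers were also lower in dKO (median -1.05).

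Cxcl5, which encodes a neutrophil-attracting chemokine, had 3.24, 3.16, 3.20 and 3.22 in dKO fibroblasts with vehicle, against 7.87, 7.86, 7.56 and 7.70 in WT fibroblasts with vehicle. All dKO arrays were far below all WT arrays, a difference of -4.54 ± 0.13 (adjusted p = 5.79e-24), and since the dKO level lay near the bottom of the arrays no fold is given. Cxcl1, of the same neutrophil-attracting group, had 8.59, 8.52, 8.40 and 8.30 in dKO and 9.06, 8.94, 9.02 and 9.03 in WT, again with no overlap and a difference of -0.56 ± 0.07 (adjusted p = 1.21e-07). Cxcl12 was likewise lower in dKO, at 10.40, 10.37, 10.27 and 10.31 in dKO against 11.47, 11.54, 11.57 and 11.56 in WT, a difference of -1.20 ± 0.03 (adjusted p = 6.23e-24). Its scavenger receptor Ackr3 was lower too (-1.06 ± 0.09, adjusted p = 3.12e-11). In the other direction, Cx3cl1, the membrane-bound chemokine fractalkine, had 9.05, 9.17, 9.14 and 9.16 in dKO against 7.38, 7.61, 7.45 and 7.42 in WT, a difference of 1.66 ± 0.06 or 3.17-fold (adjusted p = 2.51e-20). Cxcl16, the membrane-bound ligand of CXCR6, was higher in dKO by 0.83 ± 0.07 (adjusted p = 4.5e-12), and Cxcl10, the interferon-induced ligand of CXCR3, by 0.21 ± 0.06 (adjusted p = 0.00363).

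The CC chemokines were split between the genotypes. Ccl2 was higher in dKO fibroblasts by 0.49 ± 0.04 (adjusted p = 1.1e-11) while Ccl7, a ligand of the same receptor CCR2, was lower (-0.88 ± 0.06, adjusted p = 2.13e-14), and so was the T cell-attracting Ccl5 (-0.59 ± 0.06, adjusted p = 1.74e-09). Ccl9, a ligand of CCR1, was higher by 0.33 ± 0.09 (adjusted p = 0.00228), as was the dim Cxcl2, by 0.26 ± 0.09 (adjusted p = 0.0214). Prostaglandin synthesis was split in the same manner, with Ptges (prostaglandin E synthase) higher in dKO by 1.22 ± 0.10 (adjusted p = 6.17e-12) and Ptgs2 (inducible cyclooxygenase) lower (-0.84 ± 0.07, adjusted p = 1.03e-11). Among cytokines, Il6 was higher in dKO by 0.60 ± 0.10, and Csf1 and the interleukin 1 receptor antagonist Il1rn were lower (-0.39 ± 0.04 and -0.43 ± 0.11).

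Both measured NF-kB subunit genes were higher in dKO fibroblasts with vehicle. Nfkb2, the p100/p52 precursor gene, had 9.88, 9.90, 9.86 and 9.87 in dKO and 8.52, 8.75, 8.61 and 8.68 in WT, a difference of 1.24 ± 0.05 (adjusted p = 5.26e-19), and Relb, the usual partner of p52, was higher by 0.77 ± 0.05 (adjusted p = 6.43e-15). Of the feedback genes, Bcl3 and Nfkbiz, which encode nuclear IkB proteins, were higher by 1.24 ± 0.09 and 0.68 ± 0.05. Birc3 (the ubiquitin ligase cIAP2) was higher by 0.82 ± 0.06 on its brighter probe set, while the other had 0.07 and was not called. Nfkbia was higher by 0.48 ± 0.03, Zc3h12a (the RNase Regnase-1, which degrades cytokine mRNAs) by 0.29 ± 0.08 and Tnfaip3 by 0.25 ± 0.04. The arrays of the 2 genotypes did not overlap for any of these genes. The exception was Tnfaip2, a TNF-induced gene, at 6.76, 6.82, 6.82 and 6.92 in dKO against 8.72, 8.87, 8.91 and 8.78 in WT, a difference of -1.99 ± 0.07 (adjusted p = 3.34e-22). Vcam1, a leukocyte adhesion molecule, was 0.82 ± 0.04 higher in dKO (adjusted p = 6.11e-18).

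Treatment with 991 had small effects on these genes in dKO fibroblasts. There 8 of 39 members fell and 0 rose, where 1.58% of all genes fell and 1.88% rose (3.46% called), with a members' median of -0.09 against 0.00855 over all genes. The 8 genes were Ackr3, Ccl2, Ccl7, Csf1, Cxcl12, Il6, Ptgs2 and Vcam1, and the other 31 lay between -0.22 and 0.11. In WT fibroblasts 6 members rose and 6 fell (3 and 8 after quantile normalization), where 14.0% of genes rose and 5.65% fell (19.7% called), and the median was -0.04 against -0.00021 over all genes. The genotypes share no arrays, whereas 991 and AICAR within a genotype are compared with the same vehicle arrays.

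Cxcl5 had 3.21, 3.42, 3.49 and 2.94 with 991 in dKO fibroblasts against 3.24, 3.16, 3.20 and 3.22 with vehicle, and 7.32, 6.83 and 6.46 with 991 in WT fibroblasts against 7.87, 7.86, 7.56 and 7.70 with vehicle. The WT arrays with 991 were all below those with vehicle and the dKO arrays overlapped, so that the change was 0.06 in dKO and -0.88 ± 0.14 in WT (adjusted p = 4.35e-05). The difference between the changes, coded as WT minus dKO, was -0.93 ± 0.19 (adjusted p = 0.00245), although a fall from the dim dKO level could hardly have been measured. On its brightest probe set, Cxcl1 fell by 0.47 on the log2 scale in WT with 991 (SE 0.08, adjusted p = 0.000147), and in dKO its arrays with 991 overlapped those with vehicle. All 3 of its probe sets were called lower in WT (-0.65 to -0.47), and 1 of 3 was in dKO (-0.49 to -0.16). WT minus dKO was called on 1 of the 3, so a fall in WT alone was not shown for Cxcl1. Cxcl10 moved the other way. It had 9.05, 9.04, 9.19 and 9.18 with 991 in dKO against 9.04, 9.03, 9.20 and 9.15 with vehicle, and 9.62, 9.48 and 9.27 with 991 in WT against 8.85, 8.89, 8.86 and 8.97 with vehicle. The change was 0.01 in dKO and 0.56 ± 0.06 in WT (1.48-fold, adjusted p = 2.76e-07), and WT minus dKO was 0.55 ± 0.09 (adjusted p = 0.000201).

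Other members also changed differently with 991 in the 2 genotypes. In all, the WT minus dKO difference was called positive for 8 members and negative for 1, where it was positive for 4.37% and negative for 0.912% of all genes (5.28% called). Ccl7 had 6.91, 6.80, 6.90 and 6.94 with 991 in dKO against 7.32, 7.15, 7.20 and 7.26 with vehicle, and 8.21, 8.22 and 8.35 with 991 in WT against 8.09, 8.17, 8.06 and 8.12 with vehicle. It fell in dKO, with a change of -0.35 ± 0.06 (adjusted p = 0.000688), and had a change of 0.15 in WT, with WT minus dKO at 0.50 ± 0.09 (adjusted p = 0.000488). Ptgs2 fell in dKO, with a change of -0.28 ± 0.07 (adjusted p = 0.0219), and rose in WT, by 0.23 ± 0.08 (adjusted p = 0.0317), with WT minus dKO at 0.52 ± 0.11 (adjusted p = 0.0027). Its arrays overlapped with those of vehicle in both genotypes. Ccl5 had a change of -0.19 in dKO and rose by 0.34 ± 0.07 in WT (adjusted p = 0.000806), with WT minus dKO at 0.53 ± 0.09 (adjusted p = 0.00064). Ccl2, Cxcl12, Relb and Tnfaip2 had smaller positive differences, of 0.25, 0.18, 0.31 and 0.32. For Cxcl12 and Tnfaip2 these are the values of the brightest probe set. The 3 probe sets of Cxcl12 ran from -0.40 to 0.31, with 2 called higher and 1 not called. Those of Tnfaip2 ran from -0.19 to 0.45, and 0 of 3 were called when adjusted over probe sets. The WT array numbers are small, and without WT vehicle replicate 1 the count of members called in WT with 991 was 8 instead of 12, while without dKO vehicle replicate 1 the count in dKO was 5 instead of 8.

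Some members fell with 991 in both genotypes. Ackr3 had 6.05, 6.14, 6.37 and 6.62 with 991 in dKO against 6.96, 6.87, 6.86 and 6.83 with vehicle, and 7.29, 7.32 and 7.32 with 991 in WT against 7.92, 7.75, 8.11 and 7.96 with vehicle. It fell, with a change of -0.58 ± 0.09 in dKO (adjusted p = 0.000492) and -0.62 ± 0.10 in WT (adjusted p = 7.6e-05), with no overlap in either. Csf1 fell, with a change of -0.17 ± 0.04 in dKO (adjusted p = 0.00494) and -0.18 ± 0.04 in WT (adjusted p = 0.00185). In WT, Relb rose by 0.27 ± 0.05 (adjusted p = 0.000526), Nfkb2 by 0.18 (adjusted p = 0.0255) and the Regnase family gene Zc3h12c by 0.30 ± 0.09 (adjusted p = 0.0262). The dimmer probe set of Nfkb2 had -0.13 there and was not called. Ptges fell in WT, with a change of -0.47 ± 0.11 (adjusted p = 0.003) and Cxcl16 fell too (-0.24, adjusted p = 0.0211). Of the 8 feedback genes, Zc3h12c was the only one called in WT with 991.

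AICAR changed many members in fibroblasts of both genotypes, and most called changes were falls. In dKO 2 members rose and 19 fell, where 20.4% of genes rose and 19.8% fell (40.2% called), and the members' median was -0.18 against -0.02 over all genes. In WT 4 rose and 14 fell, where 19.6% rose and 15.5% fell (35.0% called), with a median of -0.07 against -0.01. The feedback genes had 1 rise and 7 falls among 8 in dKO, and 1 rise and 4 falls in WT.

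**Figure D2:**
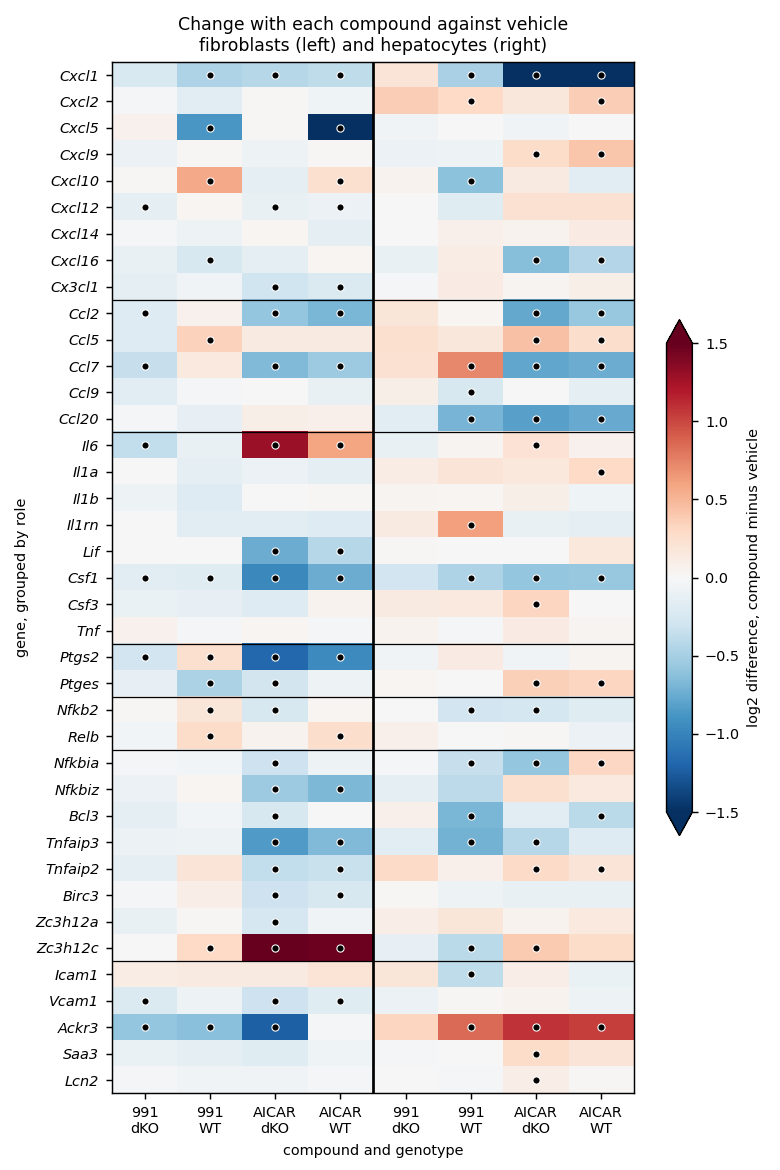
Heat map of the log2 change of each measured gene against vehicle, with columns for 991 and AICAR in fibroblasts (left) and hepatocytes (right), dKO left of WT, and a black dot where the change was called by limma. The colour scale ends at 1.5 in either direction, so Zc3h12c with AICAR in dKO fibroblasts (1.67), Cxcl5 with AICAR in WT fibroblasts (-2.52) and Cxcl1 with AICAR in hepatocytes (-2.62 in dKO, -2.15 in WT) lie beyond it.

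The largest fall with AICAR among the members in fibroblasts was that of Cxcl5 in WT. Cxcl5 had 3.13, 3.41, 3.25 and 3.09 with AICAR in dKO against 3.24, 3.16, 3.20 and 3.22 with vehicle, and 5.21, 5.33, 5.35 and 5.03 with AICAR in WT against 7.87, 7.86, 7.56 and 7.70 with vehicle. The change was 0.01 in dKO, from a level near the bottom of the arrays, and -2.52 ± 0.13 in WT, or 5.73-fold lower (adjusted p = 2.31e-16). The difference of WT minus dKO was -2.53 ± 0.18 (adjusted p = 1.02e-11). Even with AICAR the WT arrays stayed above all dKO arrays. Cxcl1 had 7.86, 8.04, 8.0 and 8.19 with AICAR in dKO against 8.59, 8.52, 8.40 and 8.30 with vehicle, and 8.63, 8.65, 8.72 and 8.53 with AICAR in WT against 9.06, 8.94, 9.02 and 9.03 with vehicle. It fell in both without overlap, with a change of -0.43 ± 0.07 in dKO and -0.38 ± 0.07 in WT.

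The CCR2 ligands fell in both genotypes. Ccl2 had 9.60, 9.69, 9.63 and 9.68 with AICAR in dKO against 10.28, 10.23, 10.24 and 10.19 with vehicle, and 8.98, 9.15, 9.09 and 9.02 with AICAR in WT against 9.79, 9.79, 9.64 and 9.77 with vehicle. The groups were apart in each genotype, and the falls were -0.58 ± 0.04 in dKO and -0.69 ± 0.04 in WT (adjusted p = 1.51e-14 in WT). Ccl7 fell, with a change of -0.66 ± 0.06 in dKO and -0.54 ± 0.06 in WT. Ptgs2 had 8.53, 8.30, 8.55 and 8.23 with AICAR in dKO against 9.66, 9.43, 9.65 and 9.58 with vehicle, and 9.52, 9.48, 9.41 and 9.45 with AICAR in WT against 10.44, 10.50, 10.29 and 10.46 with vehicle. It fell, with a change of -1.18 ± 0.07 in dKO (2.26-fold, adjusted p = 8.17e-15) and -0.95 ± 0.07 in WT (1.94-fold, adjusted p = 2.4e-12). On its brighter probe set Lif, a cytokine of the IL-6 family, fell, with a change of -0.75 ± 0.08 in dKO and -0.42 ± 0.08 in WT, with WT minus dKO at 0.32 ± 0.11 (adjusted p = 0.0477). The other probe set of Lif had -0.0044 in dKO and -0.13 in WT, and neither was called. Its WT minus dKO value was -0.12, and 0 of the 2 differences were called when adjusted over probe sets.

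Il6 itself rose. It had 5.89, 5.59, 6.05 and 5.60 with AICAR in dKO against 4.60, 4.62, 4.38 and 4.36 with vehicle, and 4.48, 4.40, 4.69 and 4.35 with AICAR in WT against 3.85, 3.76, 4.02 and 3.94 with vehicle. Every array with AICAR was above every array with vehicle in the same genotype, and the mean rise was 1.29 ± 0.10 in dKO (2.45-fold, adjusted p = 2.03e-12) and 0.59 ± 0.10 in WT (1.51-fold, adjusted p = 1.37e-05). The rise was larger in dKO, with WT minus dKO at -0.70 ± 0.14 (adjusted p = 0.000735). With 991 it fell in dKO, with a change of -0.37 ± 0.10 (adjusted p = 0.0341). Cxcl10 had a change of -0.14 with AICAR in dKO, which was not called, and rose by 0.24 ± 0.06 in WT (adjusted p = 0.00214), although in WT 1 array with AICAR (8.95) lay below the highest with vehicle (8.97). As WT minus dKO this gave 0.37 ± 0.08 (adjusted p = 0.00278).

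Among feedback genes, Tnfaip3 had 9.05, 9.06, 9.08 and 9.10 with AICAR in dKO fibroblasts against 9.94, 9.85, 9.92 and 9.99 with vehicle, and 9.01, 9.03, 9.04 and 8.97 with AICAR in WT against 9.77, 9.63, 9.66 and 9.63 with vehicle. The A20 gene thus fell, with a change of -0.85 ± 0.04 in dKO (adjusted p = 1.59e-17) and -0.66 ± 0.04 in WT, and WT minus dKO was 0.19 ± 0.06 (adjusted p = 0.0248). Nfkbiz, whose product IkB zeta is a known co-activator of Il6 and Lcn2, fell, with a change of -0.55 ± 0.05 in dKO and -0.68 ± 0.05 in WT. Nfkbia fell in dKO, with a change of -0.31 ± 0.03, and had a change of -0.07 in WT that was not called, with WT minus dKO at 0.24 ± 0.05 (adjusted p = 0.000816). Birc3 fell in both (-0.31 in dKO, -0.24 in WT), as did Tnfaip2 (-0.37 in dKO, -0.34 in WT). Bcl3 (-0.24) and Zc3h12a (-0.25) fell in dKO, as did Ptges (-0.28). Other falls in both genotypes were those of Cx3cl1 (-0.30 in dKO, -0.22 in WT), Cxcl12 (-0.11 in dKO, -0.09 in WT) and Vcam1 (-0.31 in dKO, -0.18 in WT). The feedback gene that rose was Zc3h12c, read on the brighter of its 2 probe sets, which had 8.62, 8.59, 8.63 and 8.47 with AICAR in dKO against 6.83, 7.02, 6.94 and 6.85 with vehicle, and 8.55, 8.43, 8.35 and 8.32 with AICAR in WT against 6.81, 7.17, 6.75 and 7.01 with vehicle. It rose in both genotypes, by 1.67 ± 0.09 in dKO (3.18-fold, adjusted p = 1.92e-16) and 1.47 ± 0.09 in WT (2.78-fold, adjusted p = 8.15e-15).

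Ackr3 separated the genotypes with AICAR, having fallen with 991 in both. The gene had 5.70, 5.68, 5.83 and 5.39 with AICAR in dKO against 6.96, 6.87, 6.86 and 6.83 with vehicle, and 7.98, 7.85, 7.94 and 7.86 with AICAR in WT against 7.92, 7.75, 8.11 and 7.96 with vehicle. It fell in dKO, with a change of -1.23 ± 0.09 (2.34-fold, adjusted p = 2.52e-12), and the WT arrays overlapped with a change of -0.03 (adjusted p = 0.862). The changes differed by 1.20 ± 0.13 as WT minus dKO (adjusted p = 1.25e-07). In all, the difference between the AICAR changes was called positive for 8 members and negative for 2, where it was positive for 7.93% and negative for 4.18% of all genes (12.1% called). Besides those above, these were Csf1 (0.22 ± 0.05, with falls of -0.97 in dKO and -0.75 in WT on its brightest probe set, while 2 dimmer ones rose), Nfkb2 (0.28 ± 0.08, with changes of -0.24 in dKO and 0.03 in WT) and Relb (0.20 ± 0.07, with changes of 0.06 in dKO and 0.26 in WT).

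**Figure D3:**
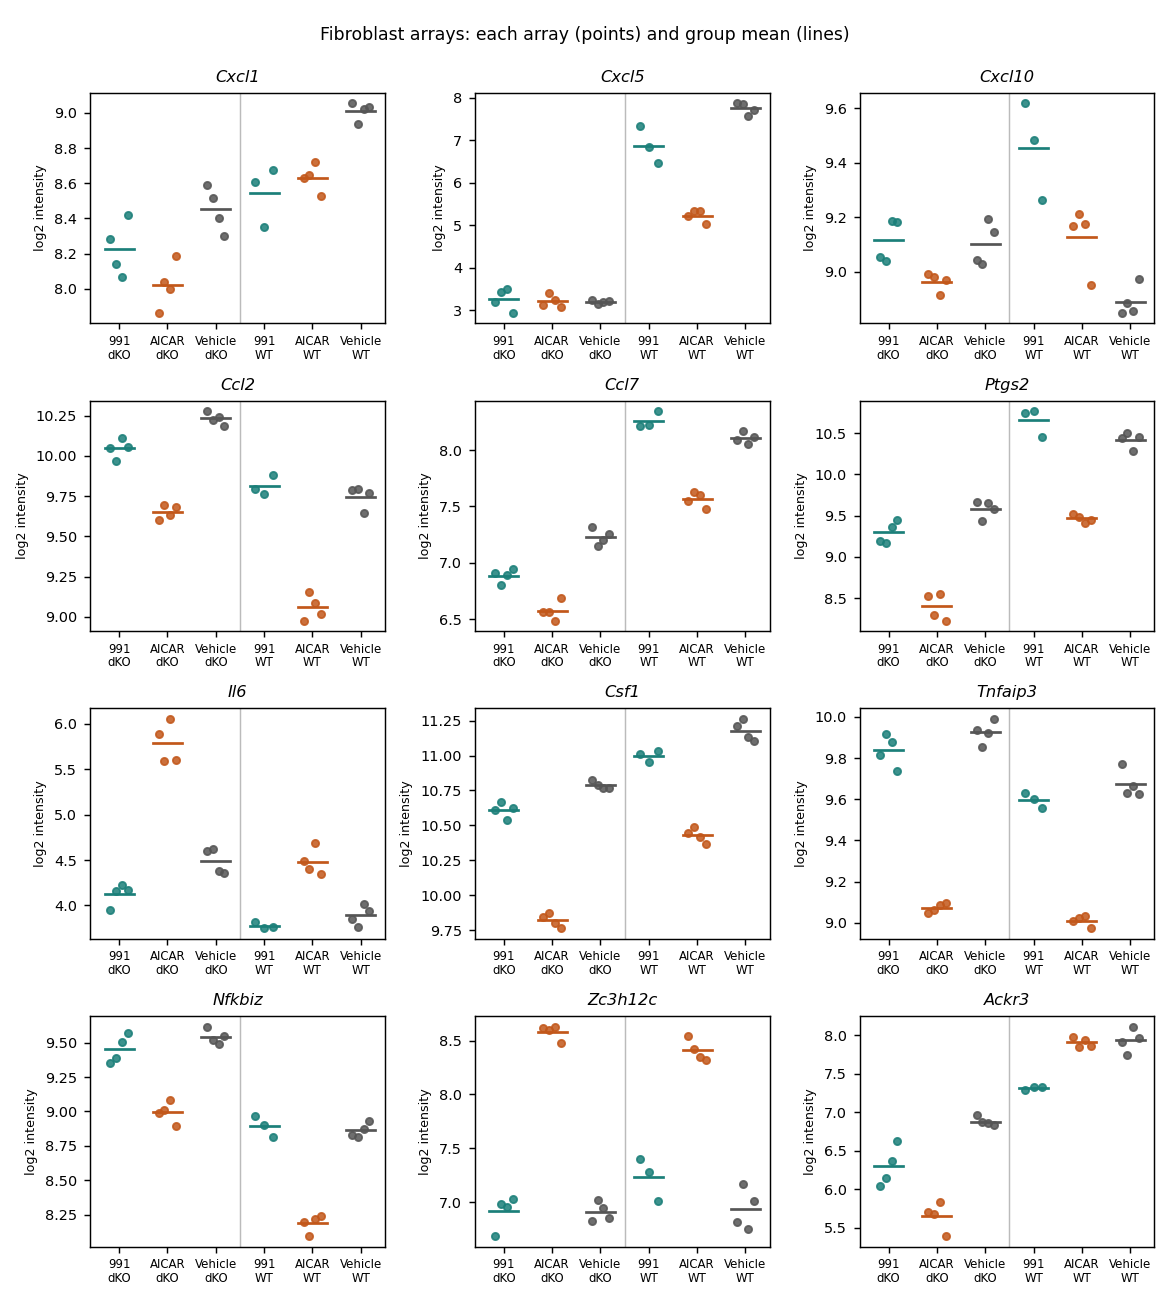
Log2 RMA intensity of 12 genes on each of the 23 fibroblast arrays (points) with group means (lines), dKO groups left of WT groups and 991 and AICAR left of vehicle. The 4 dKO arrays of Il6 with AICAR (5.59 to 6.05) and the 4 WT arrays of Cxcl5 with AICAR (5.03 to 5.35) stand clear of the vehicle arrays of their genotype.

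In hepatocytes with vehicle, 0 of 39 members were called between dKO and WT by limma, as was 0% of all genes, with 2 residual degrees of freedom. This count depended on the model, since the preparation differences ran in opposite ways in the genotypes, and with the crossed preparation number as a block, a setting chosen after seeing the data, 6 members and 1462 genes were called. At an unadjusted p under 0.05 there were 4 members (Ackr3, Ccl2, Tnfaip3 and Vcam1) and 846 of all genes. The members' median was -0.08 against 0.0048 over all genes. The largest difference was that of Ackr3, which had a lowest, median and highest array of 7.27, 7.61 and 7.85 in dKO and of 8.03, 8.63 and 9.18 in WT, a difference of -1.05 ± 0.30 (adjusted p = 0.993). Its arrays did not overlap, but the preparations of a genotype also differed, with means of 7.40 and 7.76 in dKO and 9.07 and 8.19 in WT. Saa3 showed a like spread between preparations, with vehicle means of 11.71 and 11.00 in dKO and 10.80 and 11.85 in WT, and so did Ccl5, with 8.80 and 7.86 in dKO and 7.86 and 9.0 in WT. The array means of the macrophage markers lay at 7.70 to 7.93 in dKO with vehicle and at 8.09 to 8.61 in WT with vehicle. Chemokine genes are also expressed by Kupffer cells, fewer cells of a type and less RNA per cell cannot be told apart in bulk samples, and the part of such cells in these results was not tested.

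With 991, hepatocyte members moved in WT and 0 of 39 were called in dKO. Of all genes, 0.00550% were called in dKO, which is 1 gene. At an unadjusted p under 0.05 there were 7 members in dKO, and the share of all genes at that looser threshold was not counted. In WT 4 members rose (Ackr3, Ccl7, Cxcl2 and Il1rn) and 11 fell, where 3.72% of genes rose and 2.36% fell (6.07% called), and the median was 0.0021 in the members against 0.03 over all genes. The called falls took in Bcl3, Ccl20, Ccl9, Csf1, Cxcl1, Cxcl10, Icam1, Nfkb2, Nfkbia, Tnfaip3 and Zc3h12c. The feedback genes had 0 rises and 4 falls among 8, with a median of -0.37. All 15 called members had the same sign in both WT preparations, which the call favours, being fitted on those 2 preparations. Called or not, 25 of 39 members had the same sign in dKO and 28 of 39 in WT. The macrophage marker list had 1 rise and 2 falls among 12 in WT with 991, with array means of 8.11 to 8.44 with 991 and 8.09 to 8.61 with vehicle.

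Tnfaip3 had a lowest, median and highest array of 9.66, 9.91 and 10.12 with 991 in dKO against 9.90, 10.04 and 10.19 with vehicle, and of 8.85, 9.08 and 9.20 with 991 in WT against 9.52, 9.76 and 9.93 with vehicle. The WT groups did not overlap and the dKO groups did. The change was -0.17 in dKO and -0.71 ± 0.07 in WT (adjusted p = 0.000223), with preparations of WT at -0.66 and -0.77. WT minus dKO was -0.54 ± 0.10 (adjusted p = 0.0387). Bcl3 had 10.15, 10.33 and 10.52 with 991 in dKO against 9.91, 10.39 and 10.48 with vehicle, and 9.23, 9.64 and 9.99 with 991 in WT against 10.11, 10.32 and 10.54 with vehicle. Its change was 0.07 in dKO and -0.69 ± 0.10 in WT (adjusted p = 0.00239), and WT minus dKO was -0.77 ± 0.14 (adjusted p = 0.0496). These were the only 2 members of 39 called in the difference, where 0.0824% of all genes were called negative and 0.330% positive (0.412% either way), and neither call held when the preparation was left out of the model, after quantile normalization, with a filter at the median level, with the mean of all probe sets, without the intensity trend or on leaving out any 1 of the 4 preparations. Nfkbia fell in WT, with a change of -0.34 ± 0.08 (adjusted p = 0.0275) and Nfkb2 fell too (-0.28, adjusted p = 0.0479), against values of -0.03 and 0.0032 in dKO that were not called.

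Chemokines went both ways with 991 in WT hepatocytes. Ccl20, the ligand of CCR6, had 7.99, 8.15 and 8.45 with 991 in dKO against 8.08, 8.40 and 8.57 with vehicle, and 7.72, 7.84 and 8.11 with 991 in WT against 8.25, 8.55 and 8.96 with vehicle. It fell in WT, with a change of -0.70 ± 0.10 (adjusted p = 0.00185) without overlap, against a change of -0.17 in dKO. Cxcl10 had 7.81, 7.99 and 8.21 with 991 in dKO against 7.66, 7.96 and 8.22 with vehicle, and 7.19, 7.45 and 8.18 with 991 in WT against 7.76, 8.15 and 8.56 with vehicle. The change was 0.05 in dKO and a fall of -0.62 ± 0.16 in WT (adjusted p = 0.0415), though the WT arrays overlapped. This is the opposite direction to the rise of Cxcl10 with 991 in WT fibroblasts (0.56), at another dose. Cxcl1 fell in WT, with a change of -0.48 ± 0.12 (adjusted p = 0.0318) against 0.20 in dKO. Ccl7 had 7.62, 8.09 and 8.36 with 991 in dKO against 7.35, 7.56 and 8.19 with vehicle, and 7.92, 8.27 and 8.75 with 991 in WT against 7.30, 7.59 and 7.96 with vehicle. It had 0.23 in dKO and rose by 0.72 ± 0.07 in WT (1.64-fold, adjusted p = 0.000306). WT minus dKO was not called for Ccl20 (-0.53, adjusted p = 0.186), Cxcl10 (-0.67, adjusted p = 0.4), Cxcl1 (-0.68, adjusted p = 0.146) or Ccl7 (0.49, adjusted p = 0.102), so a difference between the genotypes was not shown for these.

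Il1rn, the antagonist of the interleukin 1 receptor, had 7.0, 7.20 and 7.27 with 991 in dKO against 6.86, 7.07 and 7.20 with vehicle, and 7.58, 7.86 and 8.22 with 991 in WT against 7.08, 7.22 and 7.34 with vehicle. The WT groups did not overlap, and Il1rn rose in WT by 0.62 ± 0.11 (adjusted p = 0.00704) with a change of 0.13 in dKO. Ackr3 rose in WT by 0.85 ± 0.16 or 1.8-fold (adjusted p = 0.0115) with preparations at 0.49 and 1.20, against 0.32 in dKO. In WT fibroblasts the same gene had fallen with 991 (-0.62). Csf1 fell in WT, with a change of -0.46 ± 0.06 (adjusted p = 0.00102) against -0.28 in dKO (adjusted p = 0.228). Icam1, a leukocyte adhesion molecule, fell in WT, with a change of -0.38 ± 0.08 (adjusted p = 0.0162), against 0.19 in dKO, and its WT minus dKO difference had an adjusted p of 0.0693. Smaller called changes in WT were those of Cxcl2 (0.30, against 0.37 with an adjusted p of 0.138 in dKO), Ccl9 (-0.24, against 0.09 in dKO) and Zc3h12c (-0.41, against -0.13 in dKO). WT minus dKO was not called for Il1rn, Ackr3, Csf1, Icam1, Cxcl2, Ccl9 or Zc3h12c, so a difference between the genotypes was not shown for these. The WT counts rest on both preparations, and 5 members were called without WT preparation 1 and 3 without WT preparation 2.

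AICAR changed hepatocyte members in both genotypes. In dKO 10 rose and 9 fell, where 10.5% of genes rose and 7.31% fell (17.8% called), with a members' median of 0.05 against 0.04. In WT 8 rose and 7 fell, where 8.51% rose and 7.99% fell (16.5% called), with a median of 0.02 against 0.04. The CC chemokines had 1 rise and 3 falls among 5 in each genotype, with a median of -0.77 in dKO and -0.56 in WT. All 19 called members in dKO and all 15 in WT had the same sign in both preparations. The macrophage marker list had 8 of 12 genes called higher in dKO (median 0.29) and 1 in WT (median 0.17), and its array means were 7.88 to 8.23 with AICAR and 7.70 to 7.93 with vehicle in dKO, and 8.34 to 8.61 with AICAR and 8.09 to 8.61 with vehicle in WT.

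Cxcl1 showed the largest change of all members in hepatocytes. It had 8.75, 9.01 and 9.18 with AICAR in dKO against 11.23, 11.35 and 11.96 with vehicle, and 8.83, 9.46 and 9.96 with AICAR in WT against 11.32, 11.61 and 11.92 with vehicle. Each array with AICAR lay below each with vehicle by a wide gap, and the falls were -2.62 ± 0.12 in dKO (6.14-fold, adjusted p = 1.25e-07) and -2.15 ± 0.12 in WT (4.45-fold, adjusted p = 1.58e-06). Preparations were at -2.83 and -2.41 in dKO and -2.35 and -1.95 in WT. WT minus dKO was 0.47 ± 0.16 and was not called (adjusted p = 0.442). The related Cxcl2 had 0.17 in dKO, which was not called, and a rise of 0.37 ± 0.07 in WT (adjusted p = 0.00344).

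Ccl2 had 10.62, 10.91 and 10.99 with AICAR in dKO against 11.41, 11.50 and 11.81 with vehicle, and 11.00, 11.44 and 11.65 with AICAR in WT against 11.87, 11.99 and 12.08 with vehicle. It fell without overlap, with a change of -0.77 ± 0.12 in dKO (adjusted p = 0.0012) and -0.56 ± 0.12 in WT (adjusted p = 0.00781). Ccl7 had 6.71, 6.98 and 7.26 with AICAR in dKO against 7.35, 7.56 and 8.19 with vehicle, and 6.58, 6.84 and 7.20 with AICAR in WT against 7.30, 7.59 and 7.96 with vehicle, and fell, with a change of -0.77 ± 0.07 in dKO and -0.74 ± 0.07 in WT. In WT this is opposite to its rise with 991 (0.72), both set against the same vehicle arrays. Ccl20 fell, with a change of -0.82 ± 0.10 in dKO and -0.76 ± 0.10 in WT. Cxcl16 fell, with a change of -0.64 ± 0.10 in dKO (adjusted p = 0.0012) and -0.43 ± 0.10 in WT (adjusted p = 0.0117), as did Csf1 (-0.58 ± 0.06 in dKO, -0.56 ± 0.06 in WT). None of these 5 had a called difference between the genotypes. The count of called members was 11 without dKO preparation 1 (19 with it), and 6 without WT preparation 1 (15 with it).

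Nfkbia was the only member of 39 whose AICAR change was called as different between dKO and WT hepatocytes, where 0.154% of all genes were called positive and 0.154% negative (0.308% either way). At an unadjusted p under 0.05 there were 4 members, and the share of all genes at that looser threshold was not counted. Nfkbia had 11.45, 11.55 and 11.73 with AICAR in dKO against 11.97, 12.13 and 12.37 with vehicle, and 12.16, 12.38 and 12.51 with AICAR in WT against 11.90, 12.10 and 12.16 with vehicle. The dKO arrays with AICAR were all below those with vehicle, and in WT the lowest array with AICAR was just below the highest with vehicle while the other 9 were above it. It fell in dKO, with a change of -0.59 ± 0.08 (adjusted p = 0.000567), with preparations at -0.75 and -0.42, and rose in WT by 0.31 ± 0.08 (adjusted p = 0.0225), with preparations at 0.31 and 0.31. The changes differed by 0.89 ± 0.11 as WT minus dKO (adjusted p = 0.00555). The call did not hold with the mean of all probe sets, without the preparation in the model or without either of the WT preparations.

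Among the other feedback genes, on their brightest probe sets, AICAR in hepatocytes gave the following changes. Tnfaip3 fell in dKO, with a change of -0.43 ± 0.07 (adjusted p = 0.00156) against -0.19 in WT (adjusted p = 0.0811). Bcl3 had a difference from vehicle of -0.17 in dKO (adjusted p = 0.306) and fell in WT, with a change of -0.41 ± 0.10 (adjusted p = 0.0178). Tnfaip2 rose by 0.29 ± 0.06 in dKO and 0.20 ± 0.06 in WT, and Zc3h12c rose in dKO by 0.39 ± 0.10 (adjusted p = 0.023) with 0.27 in WT (adjusted p = 0.0961). Ackr3 had 8.03, 8.72 and 9.19 with AICAR in dKO against 7.27, 7.61 and 7.85 with vehicle, and 9.02, 9.68 and 10.23 with AICAR in WT against 8.03, 8.63 and 9.18 with vehicle. It rose by 1.08 ± 0.16 in dKO (2.11-fold, adjusted p = 0.0012) and 1.04 ± 0.16 in WT (2.06-fold, adjusted p = 0.00181), whereas in dKO fibroblasts it had fallen (-1.23). Ccl5, Cxcl9 (an interferon gamma-induced ligand of CXCR3) and Ptges rose in both genotypes, by 0.44, 0.27 and 0.35 in dKO and by 0.27, 0.42 and 0.33 in WT. Csf3, Il6, Lcn2 and Saa3 were called higher in dKO, by 0.33, 0.21, 0.10 and 0.27, against changes of -0.00045, 0.07, 0.02 and 0.19 in WT that were not called. None of these genes had a called difference between the genotypes. Il6 was dim (percentile 3.6), and its arrays with AICAR overlapped those with vehicle within both dKO preparations. The dKO arrays of Csf3 overlapped within preparation 1 and those of Saa3 within preparation 2. Ptges arrays overlapped within preparation 2 in both genotypes, and its dKO changes were 0.58 and 0.13 in preparations 1 and 2. Only 1 of the 3 probe sets of Ptges was called in each genotype. In WT the arrays of Tnfaip2 overlapped within preparation 1. Nfkb2 fell in dKO on its brighter probe set (-0.26, adjusted p = 0.0318), while its other probe set had 0.23 and was not called. Il1a, the interleukin 1 alpha gene, rose in WT (0.30, adjusted p = 0.00947), though its arrays overlapped those with vehicle within preparation 1.

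**Figure D4:**
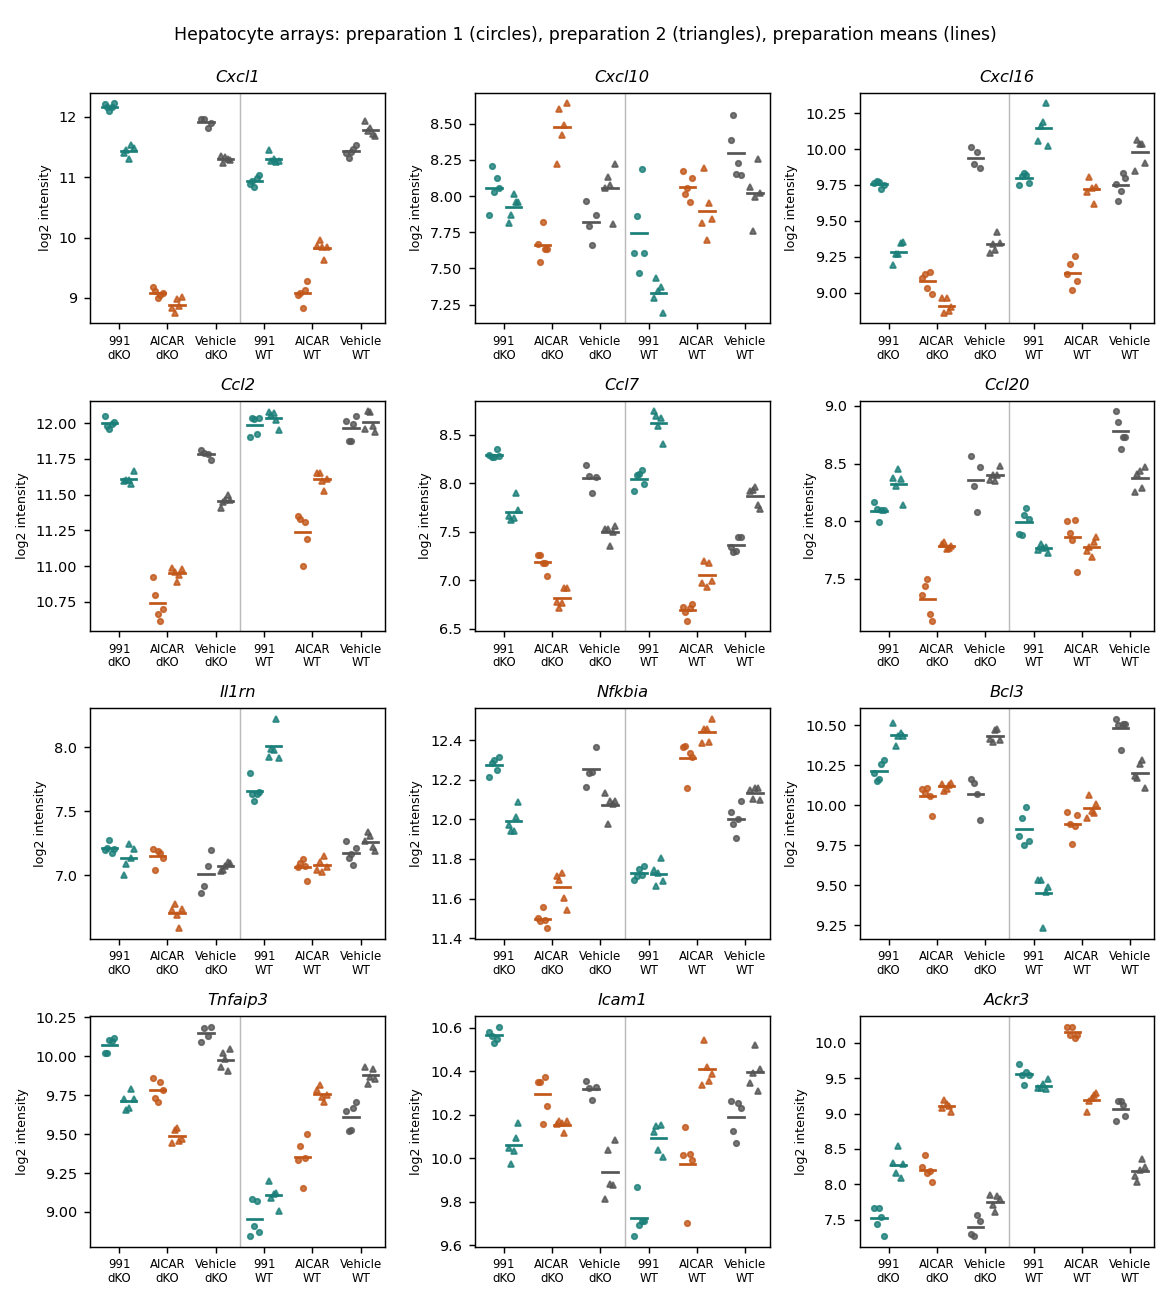
Log2 RMA intensity of 12 genes on each of the 59 hepatocyte arrays, with circles for preparation 1, triangles for preparation 2, lines for preparation means, dKO groups left of WT groups and 991 and AICAR left of vehicle. Cxcl1 with AICAR (8.75 to 9.18 in dKO, 8.83 to 9.96 in WT) lies below every vehicle array, and Nfkbia with AICAR is low in dKO (11.45 to 11.73) and high in WT (12.16 to 12.51).

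Several members were called in no comparison of a cell type on their brightest probe set. In fibroblasts these were 10 genes, Ccl20, Csf3, Cxcl14, Cxcl9, Icam1, Il1a, Il1b, Lcn2, Saa3 and Tnf, whose changes against vehicle lay between -0.19 and 0.20. In hepatocytes they were 13 genes, Birc3, Cx3cl1, Cxcl12, Cxcl14, Cxcl5, Il1b, Lif, Nfkbiz, Ptgs2, Relb, Tnf, Vcam1 and Zc3h12a, whose changes on that probe set lay between -0.39 and 0.24. Tnf and Il1b, the genes of the classical inducers of NF-kB, and Cxcl14 are in both sets. A dimmer probe set was called for some of them. That of Cxcl14, which encodes a chemokine, was lower in dKO than in WT fibroblasts with vehicle (-0.40), fell with AICAR in WT fibroblasts (-0.32, with WT minus dKO called at -0.49) and rose with AICAR in dKO hepatocytes (0.26). With AICAR in hepatocytes, the dimmer probe set of Birc3 fell (-0.83 in dKO, -0.59 in WT) and so did that of Zc3h12a (-0.36 in dKO, -0.27 in WT), and both dimmer probe sets of Nfkbiz were called in each genotype.

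The probe sets of a gene did not always move together, and 21 of the 39 members had several. For the probe sets, p-values were adjusted over all those annotated to 1 symbol. In fibroblasts with AICAR the 4 probe sets of Csf1 changed by -0.97, -1.04, 0.62 and 0.35 in dKO and -0.75, -0.71, 0.42 and 0.38 in WT, brightest first, and all 8 changes were called. The 2 brightest thus fell and the other 2 rose. Zc3h12c rose on its brighter probe set, and the other had -0.21 in dKO and 0.09 in WT. The dimmer probe set of Cxcl16 was called higher (0.39 in dKO, 0.32 in WT), while its brighter one had -0.14 in dKO and 0.03 in WT. All 3 probe sets of Cxcl1 fell in fibroblasts with AICAR, with changes of -0.43, -0.74 and -1.13 in dKO and -0.38, -1.34 and -1.57 in WT, so the size of the fall depended on the probe set. WT minus dKO was 0.05 on the brightest and was called at -0.59 and -0.43 on the others. In hepatocytes with AICAR, the 3 had changes of -2.62, -2.75 and -0.87 in dKO and -2.15, -2.35 and -0.52 in WT. The 5 probe sets of Nfkbia had WT minus dKO differences of 0.89, 0.38, 0.90, 0.28 and 1.02, of which 3 were called, and all 5 were above 0. The probe sets of Nfkbiz had AICAR minus vehicle values of 0.24, 0.45 and -0.39 in dKO hepatocytes and of 0.15, 0.50 and 1.03 in WT. With AICAR in WT hepatocytes, 2 of the 3 probe sets of Il1rn were called lower. Its values there ran from -0.71 to -0.15, the latter on the brightest. Tnfaip2 had dKO minus WT differences with vehicle in fibroblasts of -1.99, -4.12 and -0.10 on its 3 probe sets. For Ptgs2 in fibroblasts with AICAR the second probe set had -0.48 in dKO and -0.06 in WT, and for Tnfaip3 in WT hepatocytes with 991 the second had -0.19 (adjusted p = 0.12). The direction for Csf1 and Nfkbiz therefore depended on which probe set was read, with called changes both ways. For Nfkb2, the dimmer probe set had the opposite sign and was not called with 991 in WT fibroblasts and with AICAR in dKO hepatocytes.

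**Figure D5:**
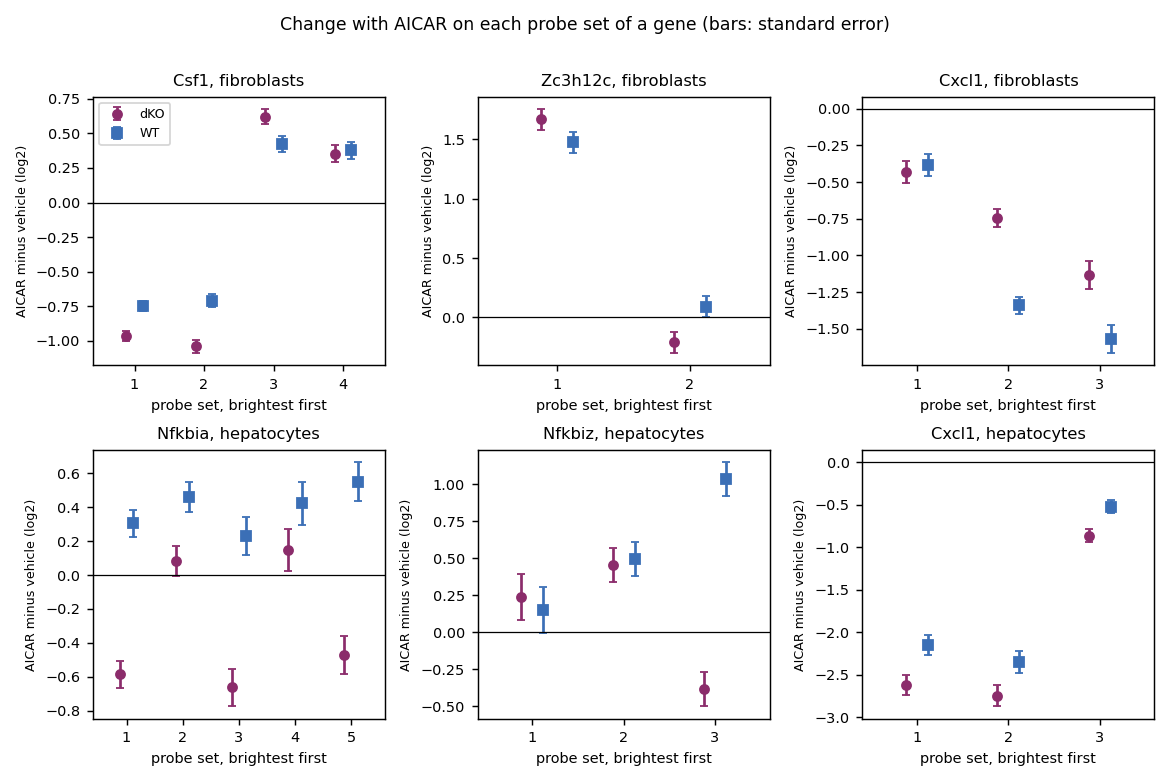
Log2 AICAR minus vehicle change (with SE bars) on each probe set of Csf1, Zc3h12c and Cxcl1 in fibroblasts and of Nfkbia, Nfkbiz and Cxcl1 in hepatocytes, brightest probe set first, with dKO as circles and WT as squares. The probe sets of Csf1 lie on both sides of 0 (-1.04 to 0.62 in dKO), and all probe sets of Cxcl1 lie below 0.

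Receptors of these ligands and the core of the NF-kB pathway were followed as 2 further lists, of 21 and 22 measured genes. In fibroblasts with vehicle, dKO had 5 receptors higher and 7 lower, and 13 core genes higher and 2 lower, where 28.0% of all genes were higher and 19.2% lower. Nfkbie, the IkB epsilon gene, was 2.36 higher in dKO, Nfkbib (IkB beta) 1.16 higher and Tnip1, an A20-binding protein gene, 0.82 higher, while Osmr, a receptor of the IL-6 family, was lower (-1.59) and the RNA sensor gene Tlr3 1.52 higher. With 991 in dKO 0 core genes were called by limma and 1 receptor, Il1r1, fell (-0.29 ± 0.05, adjusted p = 0.000688), where 3.46% of all genes were called. At an unadjusted p under 0.05 there were 5 core genes, and the share of all genes at that looser threshold was not counted. In WT with 991, 10 core genes rose and 0 fell, among them Ikbkg and Ikbkb of the IkB kinase complex (0.32 and 0.18) and Nfkbib (0.24), with a median of 0.11 against -0.00021 over all genes, of which 14.0% rose and 5.65% fell. Of the receptors there, 2 rose (Tlr4 by 0.32 and Il6ra by 0.31) and 2 fell (Cx3cr1, -0.30, and Csf1r, -0.27).

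With AICAR in fibroblasts, the receptors had 1 rise and 9 falls in dKO, where 20.4% of all genes rose and 19.8% fell, and 2 rises and 8 falls in WT, where 19.6% rose and 15.5% fell. Tlr4, the receptor of lipopolysaccharide, fell, with a change of -1.30 in dKO and -0.60 in WT, as did Osmr (-0.91 in dKO, -0.85 in WT). The core had 7 rises and 8 falls in dKO and 7 rises and 6 falls in WT, and Nfkbie fell, with a change of -1.91 in dKO and -0.91 in WT, with WT minus dKO at 1.00. Map3k14, the kinase NIK of the alternative NF-kB pathway, fell, with a change of -0.72 in dKO and -0.55 in WT. In hepatocytes with 991, 0 genes of either list were called in dKO, where 0.00550% of all genes were called. At an unadjusted p under 0.05 there were 1 receptor and 4 core genes, with the share of all genes not counted. In WT Nfkbie fell (-0.80 ± 0.17), as did Birc2, which encodes the ubiquitin ligase cIAP1 (-0.80 ± 0.10). There 1 core gene was higher and 3 were lower, where 3.72% of all genes were higher and 2.36% lower. With AICAR in hepatocytes 8 receptors rose and 0 fell in dKO, where 10.5% of all genes rose and 7.31% fell, and 3 rose and 0 fell in WT, where 8.51% rose and 7.99% fell, led by the chemokine receptor gene Cxcr4 (0.68 in dKO, 0.62 in WT). The macrophage markers also rose in dKO there, as given above, and their part in the receptor counts was not tested. The core had 3 rises and 3 falls in dKO, and 1 rise and 3 falls in WT, where Zfp36, whose product promotes decay of cytokine mRNAs, rose by 0.97 and Nfkbie fell, with a change of -0.60.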

How the data were processed

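RNA of dKO and WT fibroblasts (23 arrays) and primary hepatocytes (59 arrays) was measured on Affymetrix arrays. The authors deposited log2 values per probe set, made with RMA and Partek per the submitters' processing notes, whose versions are not given in the sources used here. Whether the cell types were normalized together is not given either, so tests were run within a cell type. Per the labels, the authors left out as outliers 1 array of WT fibroblasts with 991 and 1 of dKO hepatocytes with vehicle (preparation 1). Arrays give no read depth, and their number limits the precision.

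Of 45101 probe sets, 64 controls were left out, and 34945 had 1 gene symbol, 932 several and 9160 none, with 34741 matched to RefSeq genes by Entrez identifier. Each of 18193 genes is read from its brightest probe set in that cell type, and 74 probe sets belong to the members. For Cx3cl1, Cxcl1, Cxcl12, Ptgs2 and Vcam1 that probe set differs between the cell types.

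All tests used limma 3.58.1 under R 4.3.3 (lmFit and contrasts.fit, and eBayes with the prior variance following intensity), with Benjamini-Hochberg adjustment over all genes. Fibroblast models had 6 group means and 17 residual degrees of freedom. Hepatocyte technical replicates were averaged to 12 preparation means, with preparation within genotype as a block and 4 residual degrees of freedom. Vehicle-treated dKO and WT hepatocytes were compared on 4 means. The pairing check gave a median correlation of deviations of 0.016 (-0.38 to 0.38) between fibroblast arrays with the same number (55 pairs). With different numbers it was -0.020 (-0.46 to 0.41, 165 pairs). No shared deviation by number was seen, so the main model has no such block. The check cannot tell whether these arrays were handled together. The preparation 1 minus 2 difference correlated between treatments at 0.50 to 0.69 in WT and 0.55 to 0.85 in dKO, as the same preparations received each treatment per the labels. The models were tested on simulated data: of 100 genes planted at a log2 change of 0.5 in the comparison of AICAR with vehicle in WT, 98% were recovered in fibroblasts and 46% in hepatocytes, and at a change of 1, 100% and 90%, among 18193 genes. Genes called without a planted change numbered 22 in fibroblasts and 5 in hepatocytes. The simulated preparation effects were drawn separately for each treatment, whereas in the data treatments share them. The hepatocyte shares therefore do not measure recovery by the blocked model on these arrays. Python 3.11.15, pandas 2.3.3 and matplotlib 3.10.9 prepared tables and figures.

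Every measured member may be named. Other genes come from lists of receptors, NF-kB pathway genes and cell type markers, with at most 4 called genes named per list and comparison, and Prkaa1 and Prkaa2. The members and lists were chosen with earlier results of these data known. Alternatives were quantile normalization, the mean of all probe sets, a filter at the median level, no trend, the replicate block, every hepatocyte array as a sample, and leaving out each array or preparation.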

Additional observations from a re-analysis of the deposited data

Results flagged for a closer look

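Among 195 sets of 4 fibroblast arrays of a gene in a group, 13 held 1 array that stood apart from the other 3 by Dixon's criterion, which chance would give in about 5% of sets. In dKO with vehicle these were Cxcl14 replicate 4 (4.98, the others 4.81 to 4.83), Ccl9 replicate 2 (6.31, the others 5.88 to 5.93) and Bcl3 replicate 4 (6.73, the others 6.93 to 6.96). In dKO with 991 replicate 4 stood apart for Cx3cl1 (9.14, the others 8.92 to 8.96) and Birc3 (8.47, the others 8.35 to 8.37), and in dKO with AICAR replicate 3 did for Il1a (3.12, the others 3.51 to 3.59) and Zc3h12a (6.11, the others 6.30 to 6.32). In WT with AICAR the lone arrays were Cxcl14 replicate 3 (4.64, the others 4.87 to 4.90) and Vcam1 replicate 4 (9.13, the others all 9.27). In WT with vehicle they were Ccl2 replicate 3 (9.64, the others 9.77 to 9.79), Il1rn replicate 2 (5.78, the others 6.05 to 6.07), Ptges replicate 2 (5.88, the others 6.24 to 6.30) and Lcn2 replicate 4 (3.68, the others 3.32 to 3.36).

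A difference between the genotypes in the response to a compound was called by limma for the following members, as WT minus dKO, with the change in dKO and then in WT in parentheses. With 991 in fibroblasts it was 0.25 for Ccl2 (-0.19, 0.07), 0.53 for Ccl5 (-0.19, 0.34), 0.50 for Ccl7 (-0.35, 0.15), 0.55 for Cxcl10 (0.01, 0.56), 0.18 for Cxcl12 (-0.15, 0.03), -0.93 for Cxcl5 (0.06, -0.88), 0.52 for Ptgs2 (-0.28, 0.23), 0.31 for Relb (-0.04, 0.27) and 0.32 for Tnfaip2 (-0.13, 0.19). With AICAR in fibroblasts it was 1.20 for Ackr3 (-1.23, -0.03), 0.22 for Csf1 (-0.97, -0.75), 0.37 for Cxcl10 (-0.14, 0.24), -2.53 for Cxcl5 (0.01, -2.52), -0.70 for Il6 (1.29, 0.59), 0.32 for Lif (-0.75, -0.42), 0.28 for Nfkb2 (-0.24, 0.03), 0.24 for Nfkbia (-0.31, -0.07), 0.20 for Relb (0.06, 0.26) and 0.19 for Tnfaip3 (-0.85, -0.66). In hepatocytes it was -0.77 for Bcl3 (0.07, -0.69) and -0.54 for Tnfaip3 (-0.17, -0.71) with 991, and 0.89 for Nfkbia (-0.59, 0.31) with AICAR.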

How the results depend on the processing

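Counts are of members called. In fibroblasts the count for the AICAR difference between genotypes was 10, and 6 among genes at or above the median level, and that for 991 in dKO was 8, and 5 without the intensity trend. In hepatocytes the 991 difference between genotypes had 2, and 0 after quantile normalization, with the filter, with the mean of all probe sets, without the trend and with no replicate block, but 17 with every array as a sample. The AICAR difference had 1, and 0 with the mean of all probe sets and with no replicate block, but 8 with every array as a sample. For 991 in WT the 15 became 9 without the trend and 0 with no replicate block. For AICAR in WT the 15 became 2 with no replicate block and 25 with every array as a sample, and for AICAR in dKO the 19 became 6 with no replicate block. With every array as a sample 991 in dKO had 10 instead of 0. Technical replicates of 1 preparation are then counted as independent.

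Leaving out 1 array or preparation gave, in fibroblasts, 5 to 8 members for 991 in dKO, 8 to 13 for 991 in WT, 7 to 10 for their difference, 19 to 22 for AICAR in dKO, 16 to 18 for AICAR in WT, 7 to 9 for their difference and 26 to 27 for dKO against WT. In hepatocytes it gave 0 to 0 for 991 in dKO, 3 to 5 for 991 in WT, 0 to 1 for their difference (neither Tnfaip3 nor Bcl3 in any), 11 to 14 for AICAR in dKO, 6 to 12 for AICAR in WT, 0 to 1 for their difference (0 without either WT preparation) and 0 to 0 for dKO against WT. The lone preparation left was assumed to vary like those of the other genotype. Of values called in at least 1 of the settings compared, the only one that turned its sign was the WT minus dKO difference of Cxcl1 with AICAR in fibroblasts, at 0.05 on its brightest probe set and -0.33 with the mean of all probe sets. Values near 0 that neither setting called also turned with that mean, among them Cxcl12 with 991 in WT fibroblasts (0.03 and -0.02), Cxcl16 with AICAR in dKO fibroblasts (-0.14 and 0.13) and Zc3h12a with AICAR in WT hepatocytes (0.15 and -0.06). For 991 in WT fibroblasts the split of 6 higher and 6 lower became 3 higher and 8 lower after quantile normalization, and 7 higher and 3 lower with the filter. The cause of these shifts was not tested.

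With the technical replicate number as a replicate block, the fibroblast counts were 8 for 991 in dKO, 12 for 991 in WT, 8 for their difference, 21 for AICAR in dKO, 18 for AICAR in WT, 10 for their difference and 27 for dKO against WT, so no count moved by more than 1. Between dKO and WT hepatocytes the preparation 1 minus 2 differences correlated at -0.81 to -0.66 (9 pairs), and in settings chosen after seeing the data the same number as a block called 0 genes and the crossed number as a block called 1462 genes and 6 members. No detection calls were used, and dim members limit what can be measured.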
